A study of Mus musculus with 24 samples.

Results

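Interleukin-23 and interleukin-12 are heterodimers that share the p40 chain encoded by Il12b. It pairs with the p19 chain of Il23a to form IL-23 and with the p35 chain of Il12a to form IL-12. Interleukin-27 is built from the chains encoded by Il27 and Ebi3, and interleukin-6, oncostatin M (Osm) and leukaemia inhibitory factor (Lif) are single-chain cytokines that signal through the shared receptor gp130, encoded by Il6st. In the intestine, IL-23 from myeloid cells acts on lymphocytes that make interleukin-17 and interleukin-22, IL-12 acts on cells that make interferon-gamma, and IL-6 and oncostatin M act on epithelial and stromal cells through JAK kinases and STAT3.

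The 8 genes Il23a, Il12a, Il12b, Il6, Il27, Ebi3, Osm and Lif were chosen by name from the 17301 genes measured, with the rise of Il23a in tumour monocytes already known, and all 8 were among the 12878 genes with a mean of at least 1 RPKM (reads per kilobase of gene, scaled to library size) in at least 1 group. RNA of 4 sorted myeloid populations was sequenced from colon lamina propria (LP) of C57BL/6J mice, whose strain the labels give as C57/BL, and from tumours of the colon in Apc Min/+ animals (APC/Min in the labels), in which an inherited defect of the tumour suppressor Apc leads to adenomas. The populations were F4/80hiMHCIIhi macrophages (hereafter MHCIIhi), F4/80hiMHCIIlow macrophages (MHCIIlow), Ly6Chi MHCII- monocytes and Ly6Ghi F4/80- CD11b+ neutrophils. There were 24 libraries, 3 for each of the 8 groups, each from the pooled tissue of 13 to 15 mice aged 3 to 4 months, and the labels number the pools as donors. The tumour-bearing mice had received dextran sodium sulphate, a colitis-inducing agent. The methods describe that treatment for control mice too, whereas the labels call the LP healthy, so the treatment of the LP mice is not settled. Genotype, tissue and enzymatic digestion differed together between LP and tumour and cannot be told apart.

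The libraries held 12.8 to 41.7 M gene reads. The gates held the markers that define them: C1qa, a macrophage complement gene, stood at 711 to 1797 RPKM in the macrophage libraries and at 2.23 to 7.42 RPKM in monocytes and neutrophils, and Ly6g, the neutrophil gate marker, had 859 to 4873 reads in each neutrophil library, 2 to 32 in each monocyte library and 0 to 40 in each macrophage library. Summed levels of the 4 epithelial markers (Epcam, Krt8, Cdh1 and Lgals4) were 68.0 to 219 RPKM in tumour monocytes and 97.1 to 217 in tumour neutrophils, against 13.3 to 63.7 in LP monocytes and 11.6 to 48.3 in LP neutrophils. The sum of the 6 dendritic cell markers (Flt3, Zbtb46, Xcr1, Ccr7, Cd209a and Dpp4), led by Ccr7, was 53.8 to 75.6 RPKM in LP MHCIIhi and 5.87 to 15.6 in tumour MHCIIhi macrophages. The part of these cells in the results below was not tested.

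Promoter sequence is shown for Il6, Lif and Ebi3, the genes that stood highest in 1 population and whose windows held a match to a searched motif. The windows are the 250 bases before the RefSeq start in GRCm38.p6, plus strand, with matches in capitals: Il6 chr5:30012864-30013113, Lif chr11:4257318-4257567 and Ebi3 chr17:55952373-55952622.
Il6: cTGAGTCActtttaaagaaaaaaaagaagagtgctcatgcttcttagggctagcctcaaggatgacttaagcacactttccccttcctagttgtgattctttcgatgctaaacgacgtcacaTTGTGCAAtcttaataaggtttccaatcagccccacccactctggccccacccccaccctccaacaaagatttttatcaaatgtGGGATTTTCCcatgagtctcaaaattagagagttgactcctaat
Lif: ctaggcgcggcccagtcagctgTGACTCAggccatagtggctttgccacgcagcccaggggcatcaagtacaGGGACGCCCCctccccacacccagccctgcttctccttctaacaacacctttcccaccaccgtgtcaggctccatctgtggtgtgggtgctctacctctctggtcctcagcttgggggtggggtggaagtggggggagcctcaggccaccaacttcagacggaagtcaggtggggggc
Ebi3: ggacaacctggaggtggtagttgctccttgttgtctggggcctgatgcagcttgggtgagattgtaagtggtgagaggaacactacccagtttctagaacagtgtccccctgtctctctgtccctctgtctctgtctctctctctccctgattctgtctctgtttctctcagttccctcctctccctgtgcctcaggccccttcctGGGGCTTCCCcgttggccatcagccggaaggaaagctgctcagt
The letters searched on both strands were TGANTCA (AP-1), TGACGTCA (the cAMP response element), TTGCNNAA (C/EBP), TTCNNNGAA (the STAT motif), TATAAA and the NF-kappaB motif. The Il6 window held an AP-1 match at -249, a C/EBP match at -128 and an NF-kappaB match at -44 from the start. The Lif window held an AP-1 match at -228 and an NF-kappaB match at -178, and the Ebi3 window an NF-kappaB match at -44. Of 32851 promoter windows of this length, 6.75% held the AP-1, 9.56% the C/EBP and 7.25% the NF-kappaB motif. Of the 8 genes 5 were matched to a RefSeq promoter, and the windows of Il12a and Il12b held none of the motifs. A match is a description of letters and not a binding site.

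Osm rose in tumour in every population tested, Il23a rose in tumour neutrophils and MHCIIlow macrophages, and Lif rose in tumour neutrophils and MHCIIhi macrophages. Il27 was the 1 gene of the 8 that fell, in MHCIIhi macrophages. Differences were tested with limma on log2 RPKM over the 12878 genes, and a call is a Benjamini-Hochberg adjusted p under 0.05. In tumour against LP MHCIIhi macrophages 2 of 8 genes were called higher (8.01% of all genes were) and 1 lower (11.5% of all genes). In MHCIIlow macrophages 2 were called higher (11.5% of all genes) and 0 lower (11.8%), and in neutrophils 3 were called higher (13.1% of all genes) and 0 lower (19.0%). Il27 was the 1 gene lower at an unadjusted p under 0.05 in both comparisons without a lower call. With limma's voom on the recovered reads it was also called in MHCIIlow macrophages, and 0 genes were called lower in neutrophils. Monocytes carry no test between tumour and LP, because the rise of Il23a in this contrast was known when the genes were chosen. There, all 3 tumour libraries lay above all 3 LP libraries for 5 of the 8 genes, as they did for 16.2% of all genes, and below them for 0 of the 8 (15.1% of all genes). In a bulk library, fewer cells that transcribe a gene and less RNA per cell cannot be told apart. The median log2 difference of the 8 genes between tumour and LP was 0.70 in MHCIIhi, 0.87 in MHCIIlow, 1.68 in monocytes and 0.13 in neutrophils, where the medians of all genes were 0, 0.06, 0 and -0.12.

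**Figure D1:**
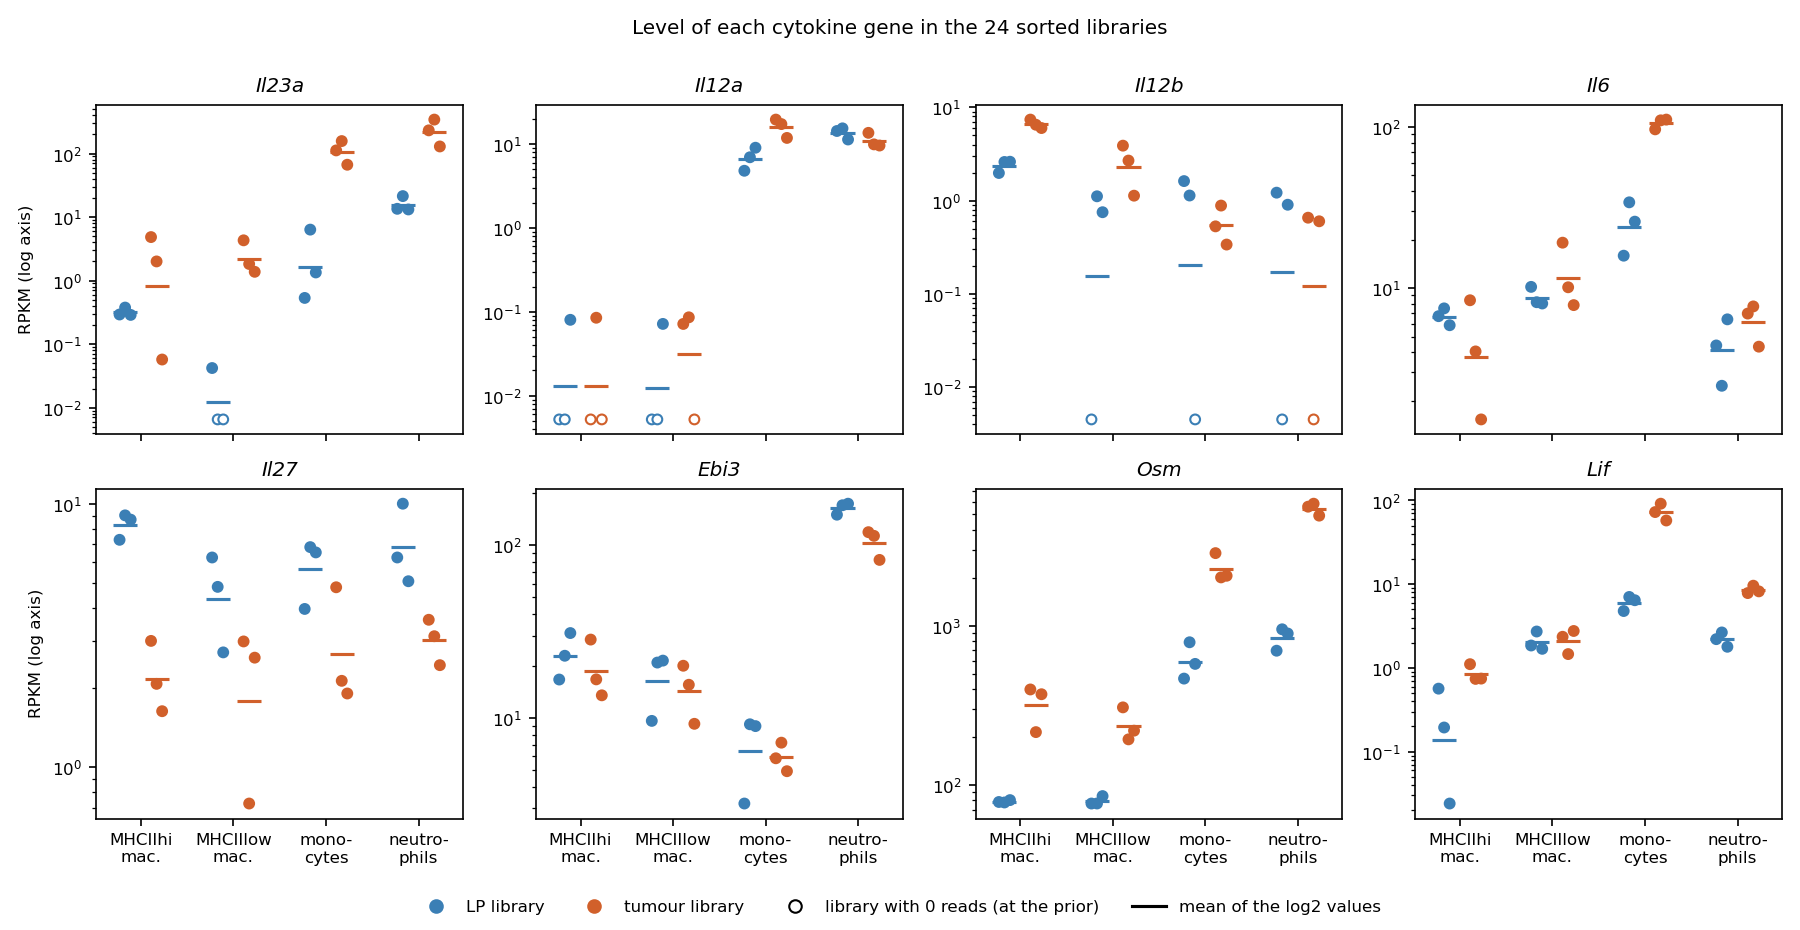
RPKM on a log axis of the 8 cytokine genes in each of the 24 libraries, by sorted population, LP in blue and tumour in orange. Open circles are libraries with 0 reads, which stand at the prior count of 0.25 reads, and bars are means of the log2 values; the 3 tumour neutrophil libraries reach 4908 to 5834 RPKM of Osm, and Lif and Il6 are highest in tumour monocytes.

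**Figure D2:**
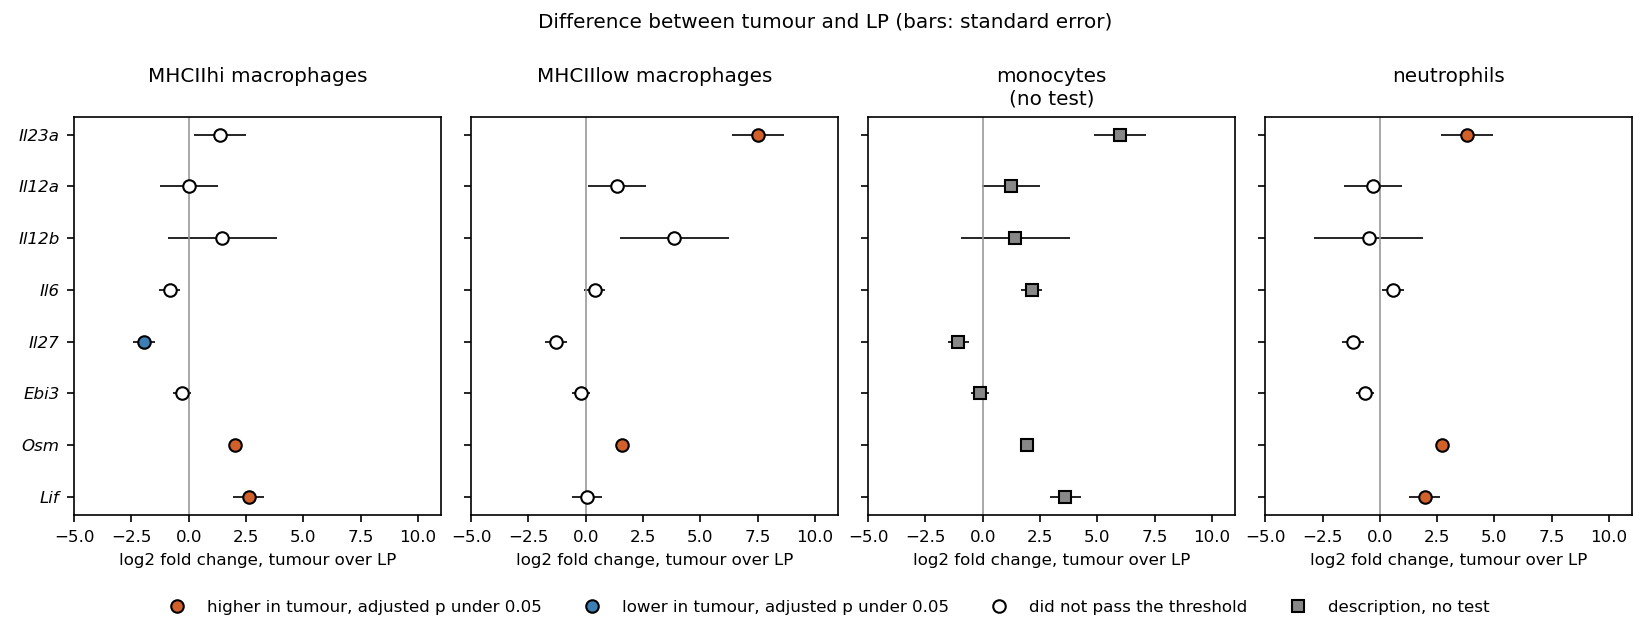
Log2 fold change of each gene, tumour over LP, with its standard error from the limma fit, in the 4 populations. Filled orange circles are Osm in all 3 tested populations, Il23a in MHCIIlow macrophages and neutrophils, and Lif in MHCIIhi macrophages and neutrophils, the filled blue circle is Il27 in MHCIIhi macrophages, and monocytes (grey squares) carry no test.

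Il23a (ENSMUSG00000025383.1, protein-coding, GRCm38 chr10:128296139-128298752, minus strand) encodes the chain particular to IL-23. In tumour monocytes it stood at 112, 157 and 66.5 RPKM, against 0.533, 6.34 and 1.34 in LP monocytes. Every tumour library lay far above the highest LP library, and the LP libraries themselves were spread widely. The mean RPKM was 40.8 times higher in tumour, a log2 difference of 5.99 (standard error 1.15), given without a test.

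In RPKM, neutrophils had the highest mean Il23a in both tissues. Its level was 231, 342 and 129 RPKM in tumour neutrophils and 13.5, 21.4 and 13.2 RPKM in LP neutrophils. The groups did not overlap, and the log2 difference was 3.80 (standard error 1.15, limma adjusted p = 0.0155). Without tumour library II the difference was 3.47 (adjusted p = 0.0534 with limma). Tumour neutrophils (234 ± 106 RPKM, SD, n = 3) and tumour monocytes (112 ± 45.2 RPKM, SD, n = 3) overlapped. The mean of Il23a ranked 429th among all genes in each of these groups. The library sizes behind RPKM were lowest, relative to reads, in tumour neutrophils, so the order of these groups depends on the scaling. The 5 neutrophil markers (Ly6g, S100a8, Csf3r, Cxcr2 and Mmp9) summed to 90.0 to 132 RPKM in tumour monocytes and 14311 to 19354 RPKM in tumour neutrophils. In LP, every neutrophil library lay above every monocyte library, with a log2 difference of 3.24 (standard error 1.15), given without a test because the LP monocyte libraries belong to the contrast that chose the gene.

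Macrophages held far less Il23a. In LP MHCIIlow macrophages it had 2, 0 and 0 reads, and a library with 0 reads allows up to 0.102 or 0.125 RPKM. In tumour MHCIIlow macrophages it had 52 to 155 reads, at 4.30, 1.82 and 1.37 RPKM. The fitted log2 difference of 7.51 (standard error 1.15, limma adjusted p = 6.62e-05) depends on the prior count and ran from 1.69 to 8.74 over the alternatives, all of them called. Pooled over libraries, 315 reads against 2 gave a rate 129 times higher (95% interval 35.5 to 1073, exact, counting error only). The neutrophil markers moved too, from 30.7 to 83.4 RPKM in LP to 242 to 674 RPKM in tumour MHCIIlow macrophages, mostly through Mmp9, while S100a8 stood at 5.92 to 8.68 RPKM and Ly6g had 40, 0 and 6 reads in the tumour libraries. Mmp9 rose in MHCIIhi macrophages as well, from 15.9 to 18.3 RPKM in LP to 101 to 187 RPKM in tumour. Ly6g had 0 reads in every MHCIIhi library. The authors report Mmp9 as higher in both tumour macrophage subsets by quantitative PCR. The part of the neutrophil markers in the Il23a difference was not tested.

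In MHCIIhi macrophages the tumour libraries disagreed. Il23a stood at 4.84, 2.00 and 0.0572 RPKM in tumour and at 0.292, 0.376 and 0.288 RPKM in LP, so the groups overlapped through tumour library VII, which had 2 reads, and the log2 difference was 1.38 (standard error 1.15, limma adjusted p = 0.471). The difference of the tumour effect between MHCIIlow and MHCIIhi macrophages was 6.13 (standard error 1.62, limma adjusted p = 0.0624), and 0 of the 8 genes were called for this difference (1.13% of all genes were higher and 0.326% lower). At an unadjusted p under 0.05 there were 2, Il23a and Lif, and voom called 0. With the donor number as a replicate block the limma adjusted p was 0.0498 (random, within tissue) or 0.00799 (fixed). The fixed block joins LP and tumour pools of the same number, although their mice differ. Over all 23 alternatives the difference ran from 0.69, with log2(RPKM + 1), to 7.41. The limma adjusted p ran from 0.00799 to 0.737, with 8 below the threshold. The difference rests on LP MHCIIlow libraries with 2, 0 and 0 reads. Within LP, Il23a was lower in MHCIIlow than in MHCIIhi macrophages, with a log2 difference of -4.70 (standard error 1.15, limma adjusted p = 0.0146), where MHCIIhi had 12 to 24 reads per library. This call was lost with limma's voom on reads (adjusted p = 0.345), with log2(RPKM + 1) or log2(RPKM + 0.1), and without LP MHCIIhi library IV or LP MHCIIlow library IV.

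Il12b (ENSMUSG00000004296.10, protein-coding, chr11:44400063-44414033, plus strand) encodes p40, the partner of both Il23a and Il12a. Its highest groups were not those of Il23a. It was highest in tumour MHCIIhi macrophages, at 7.40, 6.52 and 6.01 RPKM, above every library of the next group, tumour MHCIIlow macrophages (3.89, 2.69 and 1.13 RPKM). LP MHCIIhi macrophages held 1.98, 2.60 and 2.61 RPKM. Monocytes and neutrophils of both tissues held at most 1.62 RPKM per library. LP MHCIIlow library II, LP monocyte library V, LP neutrophil library IV and tumour neutrophil library II had 0 reads, which allows up to 0.0368, 0.0419, 0.113 and 0.187 RPKM, although their partner libraries held 0.601 to 1.62 RPKM.

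The 3 tumour MHCIIhi libraries lay above the 3 LP libraries, and the log2 difference for Il12b was 1.48 (standard error 2.38, limma adjusted p = 0.742). The standard error is shared by all 8 groups, among them those with a library at 0. With the MHCIIhi libraries alone the adjusted p was 0.00608, and with log2(RPKM + 1) it was 0.0215, both from limma. In MHCIIlow macrophages every tumour library also lay above every LP library, with a log2 difference of 3.87 (standard error 2.38, limma adjusted p = 0.269) in which LP library II was at 0 reads.

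The balance of the IL-23 partner transcripts, set per library, differed widely between groups. Il23a was 177 to 211 times Il12b in RPKM in tumour monocytes, and 215 and 353 times in the tumour neutrophil libraries V and I, which had Il12b reads. In LP neutrophils the ratio was 11.1 and 14.6. In tumour MHCIIlow macrophages it was 0.678 to 1.21, close to equal RPKM, and in tumour MHCIIhi macrophages it was 0.00952 to 0.653. In LP MHCIIlow libraries III and IV, Il12b was at 1.11 and 0.752 RPKM and Il23a at 0 reads. Levels of transcripts do not give the amount of the assembled cytokine.

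**Figure D3:**
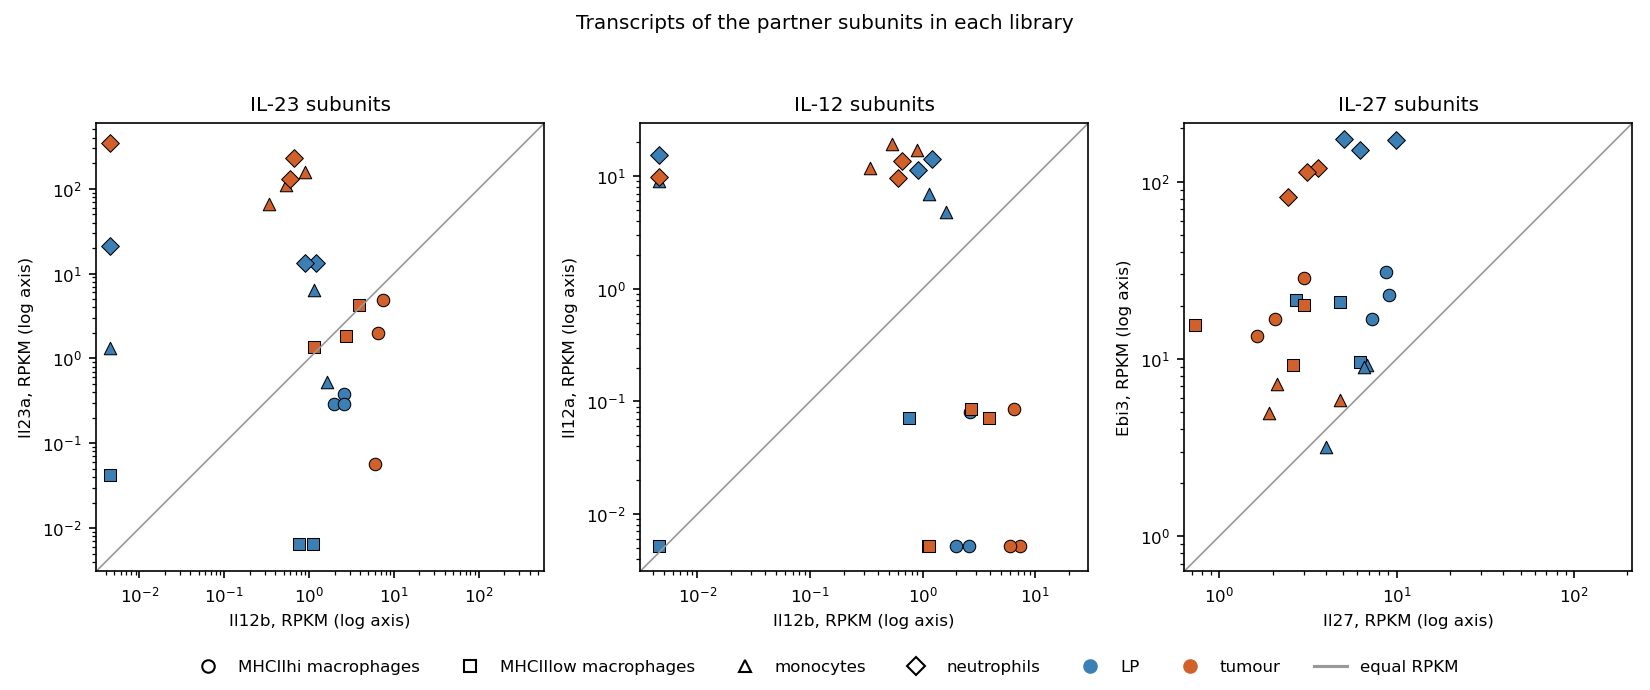
RPKM on log axes of the partner subunits of IL-23, IL-12 and IL-27, 1 point per library, with LP in blue, tumour in orange, a marker shape for each population and a line of equal RPKM. Tumour monocytes and neutrophils lie far above the line for Il23a over Il12b, macrophage libraries with Il12b reads lie far below it for Il12a over Il12b, and neutrophils stand apart through Ebi3, at 82.3 to 174 RPKM. Points at the left and lower edges of the IL-23 and IL-12 panels, at the prior count, are libraries with 0 reads.

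Il12a (ENSMUSG00000027776.8, protein-coding, chr3:68690644-68698547, plus strand) encodes p35. It was a transcript of monocytes and neutrophils and was close to 0 in macrophages, where no library exceeded 0.0859 RPKM. Tumour monocytes held 19.5, 17.3 and 11.8 RPKM and LP monocytes 4.80, 6.95 and 9.02 RPKM, which did not overlap. LP neutrophils held 14.3, 15.4 and 11.3 RPKM and tumour neutrophils 13.6, 9.89 and 9.58 RPKM, which overlapped. Pooled reads in LP monocytes were 1283 against 4 in LP MHCIIhi (a rate 366 times higher, exact 95% interval 142 to 1344) and 2 in LP MHCIIlow macrophages (490 times, 135 to 4054). In tumour, 2346 reads in monocytes stood against 6 in MHCIIhi (468 times, 215 to 1277) and 9 in MHCIIlow macrophages (304 times, 160.1 to 667).

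Both differences of Il12a between macrophages and monocytes were called by limma (adjusted p = 3.12e-06 in LP and 6.5e-07 in tumour). In LP, neutrophils lay above monocytes in every library, by 1.02 (standard error 1.26, limma adjusted p = 0.516), and limma called it with log2(RPKM + 1), log2(RPKM + 0.1), the compared libraries alone or voom (adjusted p = 0.000531, 0.0237, 0.0230 and 0.0122). Il12b exceeded Il12a in every macrophage library with Il12b reads, and Il12a exceeded Il12b in every monocyte and neutrophil library. Il12a was 19.5 to 36.8 times Il12b in RPKM in tumour monocytes and 0.000704 to 0.0130 times in tumour MHCIIhi macrophages.

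Ebi3 (ENSMUSG00000003206.6, protein-coding, chr17:55952640-55957022, plus strand) encodes a chain shared by IL-27 and IL-35 and marked neutrophils in both tissues. It stood at 150.4, 171 and 174 RPKM in LP and at 119, 113 and 82.3 RPKM in tumour neutrophils. All 3 tumour libraries were below all 3 LP libraries, with a log2 difference of -0.67 (standard error 0.39, limma adjusted p = 0.209). Macrophages held 9.26 to 31.1 RPKM and monocytes 3.20 to 9.20 RPKM. Neutrophils exceeded monocytes by 4.68 in LP (standard error 0.39, limma adjusted p = 6.41e-09) and by 4.13 in tumour (adjusted p = 2.74e-08, limma), and macrophages exceeded monocytes by 1.59 in LP and 1.46 in tumour (limma adjusted p = 0.00136 and 0.00192). In a later GENCODE annotation 23.4% of its exon bases overlap Gm16712, and since the libraries do not mark strand, reads there cannot be told apart.

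Il27 (ENSMUSG00000044701.5, protein-coding, chr7:126589010-126594941, minus strand) encodes p28, the partner of Ebi3, and its mean was lower in tumour than in LP in each population. In MHCIIhi macrophages it stood at 7.29, 9.02 and 8.69 RPKM in LP and at 3.01, 2.07 and 1.63 RPKM in tumour. It fell by 1.94 on the log2 scale (standard error 0.47, limma adjusted p = 0.00559), and the call held in all 17 alternatives. LP neutrophils held 6.24, 9.99 and 5.07 RPKM and tumour neutrophils 3.62, 3.13 and 2.43 RPKM. These groups did not overlap, and the log2 difference was -1.17 (standard error 0.47, limma adjusted p = 0.0622). With donor number as a fixed replicate block, which joins LP and tumour pools of different mice, the limma adjusted p was 0.0126.

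In MHCIIlow macrophages Il27 stood at 6.24, 4.83 and 2.72 RPKM in LP and at 2.99, 0.726 and 2.60 RPKM in tumour. The groups overlapped, and the log2 difference was -1.29 (standard error 0.47, limma adjusted p = 0.0531). With the donor number as a replicate block the limma adjusted p was 0.0490 (random, within tissue) or 0.0289 (fixed, across tissues). Of 17 alternatives of this limma comparison 12 passed the threshold, the fixed block among them. In monocytes, LP held 3.98, 6.83 and 6.52 RPKM and tumour 4.81, 2.12 and 1.90 RPKM, which overlapped. Per library, Ebi3 was 17.1 to 34.3 times Il27 in RPKM in LP neutrophils, 32.9 to 36.2 times in tumour neutrophils and 0.804 to 1.38 times in LP monocytes. Of the exon bases of Il27, 10.1% overlap Apobr. Il27 lay within 8.33 RPKM in the mean of every group, and adjacent groups in its order of levels all overlapped. The summed dendritic cell markers, led by Ccr7, were lower in tumour beside Il27 in MHCIIhi macrophages, as given above, and in the other populations. The sums were 9.34 to 17.1 RPKM in LP and 3.78 to 5.47 in tumour MHCIIlow macrophages. They were 37.8 to 44.5 and 10.1 to 30.6 in monocytes, and 92.3 to 188 and 2.34 to 19.1 in neutrophils. In monocytes Flt3, a member of this list, went the other way, at 0.320 to 0.447 RPKM in LP and 1.08 to 1.86 in tumour. The part of these markers was not tested.

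Il6 (ENSMUSG00000025746.7, protein-coding, chr5:30013114-30019981, plus strand) was highest in monocytes. Tumour monocytes held 96.7, 109.9 and 111 RPKM and LP monocytes 15.9, 34.0 and 25.8 RPKM, a log2 difference of 2.13 (standard error 0.46) given without a test. The next group in order, tumour MHCIIlow macrophages, held 19.1, 10.1 and 7.83 RPKM and overlapped with LP monocytes. Neutrophils held 2.47 to 6.39 RPKM in LP and 4.32 to 7.69 RPKM in tumour.

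Neutrophils stood below monocytes in Il6, with a log2 difference of -2.55 in LP (standard error 0.46, limma adjusted p = 0.000106), and the tumour difference was -4.11 (standard error 0.46, limma adjusted p = 2.71e-07). Macrophages stood at -1.66 against monocytes in LP and at -4.01 in tumour (limma adjusted p = 0.00354 and 1.04e-07). Between tumour and LP, Il6 was not called in macrophages or neutrophils, with log2 differences of -0.83 in MHCIIhi, 0.40 in MHCIIlow and 0.58 in neutrophils (limma adjusted p = 0.237, 0.605 and 0.368). Within tumour it stood at 8.40, 4.04 and 1.53 RPKM in MHCIIhi macrophages, overlapping with the MHCIIlow libraries, and MHCIIlow exceeded MHCIIhi by 1.62 (standard error 0.46, limma adjusted p = 0.1, and 0.0299 with donor number as a fixed replicate block). Of the 8 genes, 0 were called between the macrophage subsets in tumour (0.567% of all genes were higher and 0.567% lower), with 1 at an unadjusted p under 0.05 and 0 by voom.

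Osm (ENSMUSG00000058755.3, protein-coding, chr11:4236420-4241026, plus strand) encodes a cytokine that acts on stromal and epithelial cells and was the most abundant of the 8 transcripts in every group. Tumour neutrophils held 5587, 5834 and 4908 RPKM, where its mean ranked 17th among all 17301 genes, and LP neutrophils 893, 949 and 696 RPKM. Tumour monocytes held 2009 to 2855 RPKM, where it ranked 14th, and LP monocytes 465 to 786 RPKM. The tumour libraries lay above the LP libraries in both.

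Macrophages held less but rose as well. In LP, MHCIIhi libraries held 78.0, 77.5 and 80.2 RPKM and MHCIIlow libraries 76.3, 76.4 and 85.0 RPKM, a log2 difference between the subsets of 0.01 (standard error 0.23). Tumour MHCIIhi macrophages held 214 to 397 RPKM and tumour MHCIIlow macrophages 193 to 307 RPKM, above every LP macrophage library. Osm rose by 2.69 in neutrophils (standard error 0.23, limma adjusted p = 9.51e-08), by 2.01 in MHCIIhi and by 1.57 in MHCIIlow macrophages (limma adjusted p = 3.17e-06 and 4.21e-05), and all 3 calls held in each of their 17 alternatives, with differences of 2.27 to 2.94 in neutrophils. In monocytes the log2 difference was 1.94 (standard error 0.23), given without a test.

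The tumour effect on Osm was larger in neutrophils than in macrophages by 0.91 (standard error 0.28, limma adjusted p = 0.0226), with 1 of 8 genes called higher for this difference (11.5% of all genes) and 0 lower (14.5%). It was lost under quantile normalization (0.23, adjusted p = 0.61), without LP neutrophil library III (0.77, adjusted p = 0.0739) and without tumour neutrophil library II (0.85, adjusted p = 0.0516), all with limma. In tumour, neutrophils exceeded monocytes by 1.25 (standard error 0.23, limma adjusted p = 0.000106), and quantile normalization turned this difference to -0.37. The median log2 difference of all genes was -0.36 between tumour neutrophils and monocytes, -0.24 between those of LP and -0.12 between tumour and LP neutrophils, and it was 0.09, 0.05 and 0.12 with libraries centred on their median. Against the median of -0.12, the Osm difference between tumour and LP neutrophils stands at 2.69. Macrophages stood below monocytes, at -2.91 in LP and -3.06 in tumour (limma adjusted p = 1.42e-09 and 2.65e-10).

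Lif (ENSMUSG00000034394.10, protein-coding, chr11:4257557-4272514, plus strand) starts 16531 bases beyond the end of Osm and encodes a gp130 cytokine with roles in stem cell maintenance and inflammation. Tumour monocytes held 72.7, 91.5 and 57.7 RPKM and LP monocytes 4.78, 7.04 and 6.44 RPKM. The log2 difference was 3.60 (standard error 0.67), given without a test, and every other group lay below the tumour monocytes.

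Tumour neutrophils held 7.83, 9.60 and 8.21 RPKM of Lif and LP neutrophils 2.21, 2.65 and 1.79 RPKM. The groups did not overlap, and Lif rose by 1.96 (standard error 0.67, limma adjusted p = 0.0296). That call was lost under quantile normalization (adjusted p = 0.0889), with limma's array weights (0.255) and without LP neutrophil library III (0.0633) or V (0.0840) or tumour neutrophil library I (0.0537), II (0.0743) or V (0.0578). In tumour, neutrophils stood at -3.09 against monocytes (standard error 0.67, limma adjusted p = 0.000533).

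In MHCIIhi macrophages Lif was low in both tissues, at 1.11, 0.740 and 0.746 RPKM in tumour and 0.566, 0.194 and 0.0240 RPKM in LP, where library V had 3 reads. The tumour libraries lay above the LP libraries, and Lif rose by 2.62 (standard error 0.67, limma adjusted p = 0.0081), a difference that ran from 0.58 to 3.63 over the alternatives and had an adjusted p of 0.176 when limma was given these libraries alone. MHCIIlow macrophages held 1.69 to 2.72 RPKM in LP and 1.46 to 2.76 RPKM in tumour, a log2 difference of 0.05 (standard error 0.67, limma adjusted p = 0.983). Within LP, MHCIIlow exceeded MHCIIhi macrophages by 3.89 (standard error 0.67, limma adjusted p = 0.000848, and 0.122 with these libraries alone). Macrophages stood at -3.50 against monocytes in LP and -5.76 in tumour (limma adjusted p = 0.000113 and 1.14e-07).

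Counted over these genes, the populations within a tissue differed as follows. Il23a is left out of the counts against monocytes, since its monocyte values were used to choose it. The tests of the other 7 genes against monocytes use the same monocyte libraries and are read with that limit. Between LP macrophages and monocytes 1 of 7 was called higher in macrophages (12.5% of all genes) and 4 lower (17.0%), and in tumour 1 of 7 was higher (16.8%) and 4 lower (21.4%). Between LP neutrophils and monocytes 1 of 7 was higher (24.1% of all genes) and 1 lower (30.4%), and in tumour 2 of 7 were higher (23.3%) and 2 lower (34.9%). Between MHCIIlow and MHCIIhi macrophages of LP, 1 of 8 was higher (2.13%) and 1 lower (5.57%). Comparisons with the same control libraries are not independent of each other. With libraries centred on their median, 2375 genes were higher and 1788 lower between tumour and LP neutrophils, against 1690 and 2452 as reported, and 3868 and 3421 between tumour neutrophils and monocytes, against 2997 and 4489.

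Of 10 listed receptor genes 8 were tested, and 0 were called higher in tumour in MHCIIhi macrophages, MHCIIlow macrophages or neutrophils, while 3, 3 and 1 were called lower. Of all genes, 11.5%, 11.8% and 19.0% were lower in these comparisons, so the 1 of 8 in neutrophils is not above the background. Il6st, encoding gp130, stood at 16.1 to 18.4 RPKM in LP MHCIIhi and 3.04 to 3.83 RPKM in tumour MHCIIhi macrophages. In neutrophils it was low and the tissues overlapped, at 0.929 to 1.64 RPKM in LP and 0.200 to 1.34 RPKM in tumour. Its log2 differences were -2.31 in MHCIIhi, -1.97 in MHCIIlow and -1.51 in neutrophils (limma adjusted p = 0.00305, 0.00798 and 0.0305). Il6ra, the IL-6 receptor chain, stood at 32.2 to 40.3 RPKM in LP and 21.9 to 25.4 RPKM in tumour MHCIIlow macrophages (-0.58, limma adjusted p = 0.0114). Osmr and Il27ra, the remaining receptors called lower, were at low levels. Osmr stood at 0.593 to 1.05 RPKM in LP and at most 0.150 RPKM in tumour MHCIIlow macrophages. In MHCIIhi macrophages it held only 0.0448 to 0.140 RPKM in LP and at most 0.0026 RPKM in tumour. Il27ra stood at 0.988 to 1.67 RPKM in LP and at most 0.105 RPKM in tumour MHCIIhi macrophages. It reached the mean of 1 RPKM needed for testing only in LP MHCIIhi macrophages. Its call, 1 of the 3 in MHCIIhi macrophages, is therefore a description. Osmr reached that mean only in LP monocytes, at 1.34 RPKM. Its calls, 1 of the 3 in each macrophage subset, rest on low levels, and both counts of 3 carry that limit. The 4 fibroblast markers (Col1a1, Col1a2, Dcn and Pdgfra) were lower in tumour as well, with sums of 5.47 to 16.5 RPKM in LP and 0.0496 to 1.17 in tumour MHCIIhi macrophages, 15.8 to 43.6 and 0.298 to 0.506 in MHCIIlow macrophages, and 15.4 to 29.5 and 1.23 to 1.57 in neutrophils. Pdgfra was at or under 3 reads in every tumour MHCIIlow library, as were Col1a2, Dcn and Pdgfra in tumour neutrophils. Their part in the receptor differences and in that of Il11 was not tested.

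Among the 12 JAK-STAT transducers and brakes, 1 was called higher and 6 lower in tumour MHCIIhi macrophages, 2 higher and 6 lower in MHCIIlow macrophages, and 1 higher and 1 lower in neutrophils. The shares of all genes were 8.01% higher and 11.5% lower, 11.5% and 11.8%, and 13.1% and 19.0%, so the neutrophil counts are not above the background. Stat3, the transducer below gp130, was lower by -1.38 in MHCIIhi and -1.39 in MHCIIlow macrophages (limma adjusted p = 2.51e-06 and 1.82e-06), from 53.3 to 83.5 RPKM in LP MHCIIlow to 19.9 to 29.5 RPKM in tumour MHCIIlow macrophages. Socs1, a feedback inhibitor of JAK kinases, was lower in all 3 populations, at -2.04, -2.04 and -2.42 (limma adjusted p = 0.000358, 0.000272 and 3.8e-05). The tumour effect was more positive in neutrophils than in macrophages for 4 of the 12 (11.5% of all genes), among them Stat3 (1.74, limma adjusted p = 2.14e-06) and Ptpn2, a phosphatase of this pathway (1.82, limma adjusted p = 1.92e-06).

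Of 12 transcription factors known to act on these cytokine genes, 5 were called higher and 3 lower in tumour neutrophils, 2 higher and 5 lower in MHCIIhi, and 1 higher and 3 lower in MHCIIlow macrophages. The shares of all genes were 13.1% higher and 19.0% lower, 8.01% and 11.5%, and 11.5% and 11.8%. Fosl1, an AP-1 subunit, stood at 89.8 to 130 RPKM in LP and 687 to 902 RPKM in tumour neutrophils (2.84, limma adjusted p = 0.000562), and at 40.7 to 101 RPKM in LP and 1.47 to 4.31 RPKM in tumour MHCIIlow macrophages (-4.46, limma adjusted p = 5.47e-06). Nfkbiz, a nuclear regulator of NF-kappaB, rose by 2.02 and Rel, an NF-kappaB subunit, by 1.58 in neutrophils (limma adjusted p = 4.06e-06 and 3.02e-07). The tumour effect differed between neutrophils and macrophages for 6 of the 12, higher in neutrophils for 5 (11.5% of all genes) and lower for 1 (14.5%), with Fosl1 at 6.77 and Nfkb1 at 2.30 (limma adjusted p = 7.78e-07 and 5.73e-07). Of 5 other ligands of the family 2 were tested, and Clcf1 was lower in tumour MHCIIhi macrophages (-1.48, limma adjusted p = 0.00232). Il11 was called lower in tumour MHCIIlow macrophages, at 0.514 to 1.71 RPKM in LP and at most 0.114 RPKM in tumour. It reached the mean of 1 RPKM needed for testing only in LP MHCIIlow macrophages, so this call is a description.

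**Figure D4:**
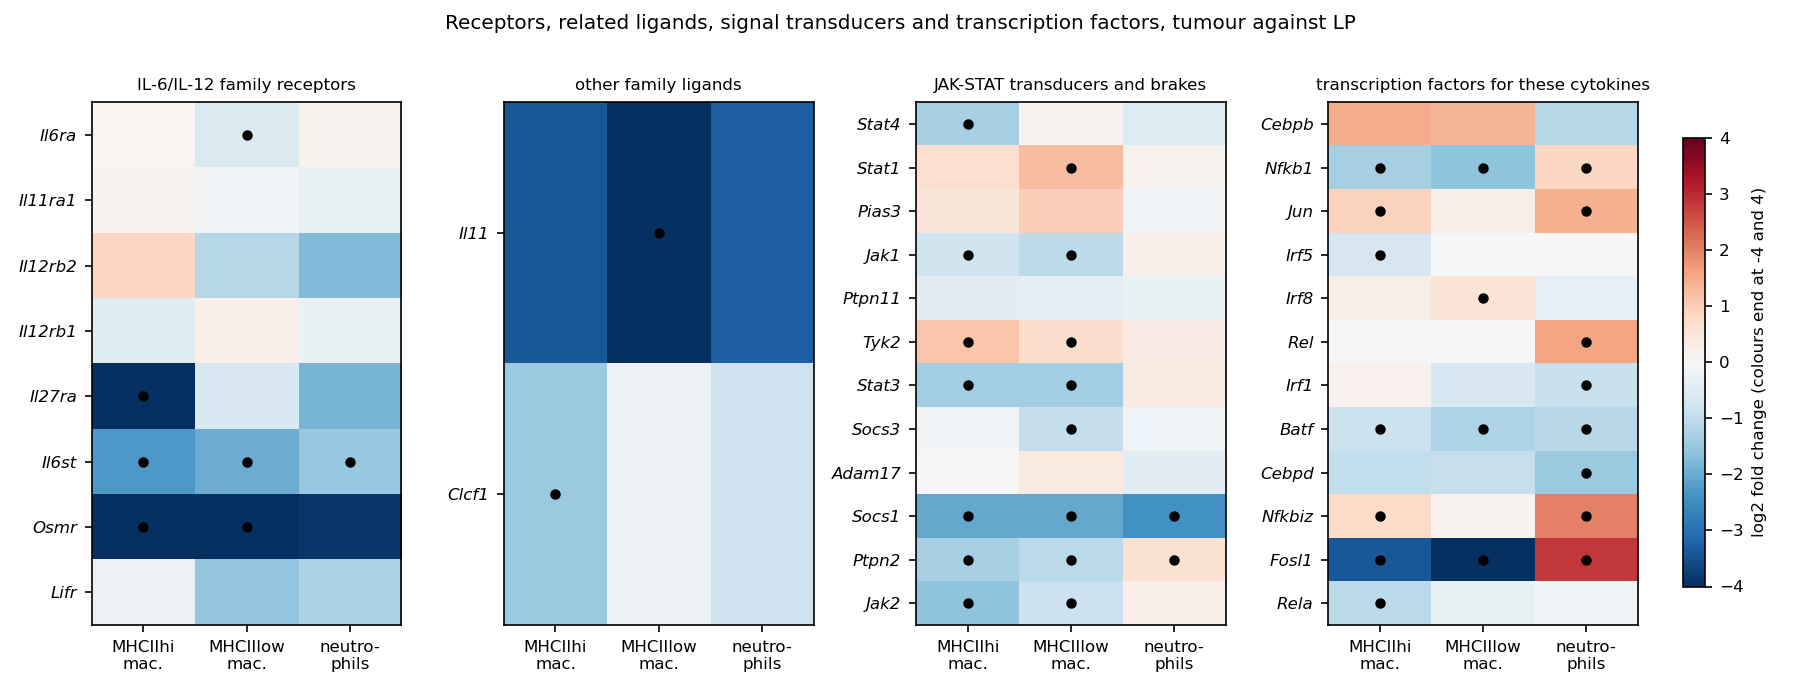
Log2 fold change, tumour over LP, as colour (red higher, blue lower in tumour, colours ending at -4 and 4) for the tested genes of the 4 lists in both macrophage subsets and neutrophils, with a dot where limma called the difference. Il6st is dotted and blue in all 3 populations, at -2.31, -1.97 and -1.51, and Fosl1 is red in neutrophils (2.84) and blue in MHCIIhi (-3.40) and MHCIIlow macrophages (-4.46).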

How the data were processed

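Per the methods and labels, RNA was amplified with SMARTSeq v2, a kit that does not mark strand, and paired ends were aligned with STAR 2.3 to GRCm38/mm10 and counted with featureCounts 1.5 on GENCODE genes. Genes averaging few reads in all populations were removed by the authors. The authors deposited log2 RPKM for 17301 genes in 24 libraries. The values were whole reads after removing a prior count of 0.25 reads (100% of 415224 values, tolerance 0.0001), which gave 12.8 to 41.7 M reads per library (median 26.4 M). The library sizes behind the authors' RPKM were 0.466 to 1.51 times these reads, lowest in tumour neutrophils. The reads carry no molecular identifiers, so intervals cover counting error only.

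The 12878 genes that reached a group mean of 1 RPKM anywhere were fitted with limma 3.58.1 in R 4.3.3, 8 groups in 1 fit, and p-values were adjusted by Benjamini-Hochberg over all of them. Read ratios of low genes carry an exact 95% interval. Libraries are pools of mice, so p-values measure the spread between pools. The donor numbers of the labels were checked for pairing: over 29 pairs with the same donor and tissue, deviations correlated at -0.066 to 0.25 (median 0.017, consensus 0.048). Alternatives were log2(RPKM + 1) and log2(RPKM + 0.1), a minimum mean of 5 RPKM, quantile normalization, median centring, array weights, voom on the recovered reads, the compared libraries alone, replicate blocks and leaving out each library. The random replicate block was the donor number within tissue. The fixed block joined LP and tumour pools of the same donor number, although their mice differ. The scripts were tested on simulated data. In it, genes with few reads were called too often on log2 RPKM, which is why voom was run as well.

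The 8 genes and all lists were chosen with earlier results of these data known. Named were the 8 genes, called genes of the receptor and signalling lists, and, for each of the 8, the 3 genes with the highest Pearson r of log2 RPKM over the 24 libraries among genes with a mean of at least 5 RPKM in a group. One of the genes that this rule named is not reported here.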

Additional observations from a re-analysis of the deposited data

Results flagged for a closer look

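The tumour effect on Osm differed between neutrophils and macrophages. The difference of the log2 effects was 0.91 (standard error 0.28, limma adjusted p = 0.0226), with the 3 tumour libraries above the 3 LP libraries in each of the populations. It was 0.23 under quantile normalization.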

How the results depend on the processing

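Under alternatives other than leaving out a library, 106 recomputed counts of called genes stayed within 1.5 times the reported count, 14 were higher and 4 lower. In MHCIIlow macrophages, tumour against LP, 4 of the 8 genes were called with log2(RPKM + 1). Of all 12878 genes, 2096 were then higher and 1944 lower. Between the LP macrophage subsets 1 was called with log2(RPKM + 0.1), the compared libraries alone or voom. Of all genes, 267 to 741 were then higher and 517 to 1099 lower. Between the tumour subsets 1 was called with quantile normalization, array weights or the fixed replicate block, with 111 to 143 of all genes higher and 111 to 174 lower. Between LP neutrophils and monocytes 5 were called with log2(RPKM + 1), log2(RPKM + 0.1), the compared libraries alone or voom. Of all 12878 genes, 3042 to 3516 were then higher and 3106 to 4161 lower, so the 5 are not read as a result about these genes. For the difference of the tumour effect between neutrophils and macrophages 4 were called with log2(RPKM + 1) and 0 with quantile normalization. Of all genes, 1855 were higher and 2221 lower with log2(RPKM + 1), and 1482 and 1270 with quantile normalization. Between the macrophage subsets 1 was called with a minimum mean of 5 RPKM, quantile normalization, array weights or either replicate block. Of the genes tested, 145 to 292 were then higher and 27 to 141 lower. Counts between LP neutrophils and monocytes here and below include Il23a, 1 of 3 called as fitted, for which the report gives no test. The causes were not tested. Leaving out 1 library gave 3 to 4 called genes in MHCIIhi macrophages, 2 to 3 in MHCIIlow macrophages, 1 to 3 in neutrophils, 1 to 2 between the LP macrophage subsets, 0 to 1 between the tumour subsets, 2 to 4 between LP neutrophils and monocytes, 0 to 2 for neutrophils minus macrophages and 0 to 1 for MHCIIlow minus MHCIIhi. The Osm difference between tumour neutrophils and monocytes turned to -0.37 under quantile normalization, and the Lif difference in monocytes was 4.04 with the fixed replicate block. The donor numbers did not correlate in every pair, so the replicate block is given as an alternative. The fixed block, which joins LP and tumour pools of the same number, gave 4 called genes in neutrophils and 4 between LP neutrophils and monocytes. For this block there, and for leaving out a library, counts over all genes are not given, and the counts describe stability only. The order of the monocyte libraries does not depend on a pseudocount, a filter, weights or a block, so these gave no new count there. Between the LP macrophage subsets 27.6% of called genes were higher and 37.9% with quantile normalization, and for the difference of their tumour effects 77.7% and 62.4%. For neutrophils minus macrophages 1485 genes were higher and 1864 lower, against 2143 and 1181 with centred libraries. Genes with few reads, Il12b, Il12a and Il23a in macrophages, are limited by depth.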

Other observations

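The genes whose log2 RPKM followed each cytokine most closely over the 24 libraries are given as a description, since the points share tissues, gates and libraries. Il23a went with Ptgs2 (r = 0.94), the inducible cyclooxygenase, and Il1b (0.92), encoding interleukin-1 beta. Osm went with Rffl (0.98), Ptgs2 (0.96) and Gsdmd (0.96), the pore-forming protein of pyroptosis. Ebi3 went with Osgin1 (0.96), Cd82 (0.94) and Ccdc126 (0.94), and Il12a with Prdx6 (0.95), Hp (0.94) and Hif1a (0.94). Il6 went with Uqcrfs1 (0.93), Cope (0.92) and Trabd (0.86). The closest genes were less alike for Lif (Slc30a9 0.83, Ctps2 0.82 and Atxn1 0.81), Il27 (B4galt5 0.81, Adora3 0.79 and Cmpk2 0.79) and Il12b (Npnt, Sh2d1b1 and Itgav, each 0.78).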
